A study of Mus musculus with 6 samples.

Results

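The C/EBP and Krüppel-like transcription factors described here are 10 genes, Cebpa, Cebpb, Cebpd, Klf2, Klf4, Klf5, Klf6, Klf9, Klf10 and Klf15, taken by gene symbol from the 39179 genes of an RNA-sequencing table of Ocy454 cells. Ocy454 is a mouse osteocytic cell line, and the cells used were a subclone grown from a single cell. All cells were held for 14 days at 37 °C and then received, for 4 h, vehicle, 1 nM parathyroid hormone (PTH 1-34) or 0.5 µM YKL-05-093, a small molecule inhibitor of salt inducible kinases. The labels give the vehicle as phosphate-buffered saline with hydrochloric acid, whereas the study's methods name DMSO as the solvent of compounds for work on cells. Each of the 3 conditions had 2 libraries, named replicates 1 and 2. All groups carried the same genotype, so the only labelled difference between them was the agent. The labels do not say whether the libraries of a condition came from separate cultures. SEs and p-values therefore rest only on the spread between these libraries, which may be technical. That spread was taken partly from the gene itself and partly from all genes tested.

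C/EBP proteins are basic leucine zipper factors that bind DNA as dimers. C/EBPα drives fat cell and myeloid differentiation, while C/EBPβ and C/EBPδ are induced early by hormones, cytokines and cAMP, and C/EBPβ is also known in osteoblasts as a partner of RUNX2 and ATF4. Krüppel-like factors share a zinc finger domain at the carboxyl end and bind GC-rich and CACCC-containing sites, as do the related SP factors, of which osterix (Sp7) is required for bone formation. PTH acts through a receptor coupled to Gsα and cAMP, which activates protein kinase A, leads to inhibition of salt inducible kinases and allows CREB and its coactivators to act at cAMP response elements. The comparisons asked which of these factors had other RNA levels after the hormone, after the kinase inhibitor, and after the hormone relative to the inhibitor.

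All 10 genes are protein coding in the mouse genome build GRCm38. Cebpa lies at chr7:35119293-35121928 on the plus strand, Cebpb at chr2:167688915-167690418 on the plus strand and Cebpd at chr16:15887286-15891031 on the plus strand, each as 1 exon without introns. Klf4 lies at chr4:55527143-55532466 on the minus strand and Klf10 at chr15:38291463-38300706 on the minus strand. The remaining Krüppel-like genes are on plus strands, with Klf2 at chr8:72319033-72321656, Klf5 at chr14:99298691-99315036, Klf6 at chr13:5861482-5870394, Klf9 at chr19:23141226-23168134 and Klf15 at chr6:90462576-90475238. Exons of Cebpb share 312 bases (20.7% of its exon bases) with Tmem189 on the opposite strand, and exons of Cebpd share 562 bases (15.0%) with Spidr, also on the opposite strand. These shares are of the exon bases in GENCODE M21, which for Cebpd are 3746. The shortest length that the deposited values of Cebpd allow is 1178 bases, so whether its shared bases were counted is not known. The study's methods name a directional library kit, but whether reads were counted by strand is not stated. How reads in the shared bases were assigned is therefore not known, and reads of each pair may not be told apart.

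Sequence upstream of the start was found in RefSeq (GRCm38.p6) for 7 of the 10 genes, all but Cebpd, Klf5 and Klf10. The core of the cAMP response element, TGACG on either strand, was searched because PTH acts through cAMP. It occurred in 5 of these 7 windows of 250 bases, against 17.8% of 32851 such windows of the genome. The windows of Cebpb and Klf4 are shown because these genes had the largest fitted changes after PTH, in opposite directions, and that of Klf15 because it holds 2 cores. They are chr2:167688665-167688914 (plus strand), chr4:55532476-55532725 (minus strand) and chr6:90462326-90462575 (plus strand), written 5′ to 3′ up to the base before the start in RefSeq, which for Klf4 differs from the gene end given above from GENCODE, with each core in capitals, as TGACG or as its complement CGTCA.
Cebpb: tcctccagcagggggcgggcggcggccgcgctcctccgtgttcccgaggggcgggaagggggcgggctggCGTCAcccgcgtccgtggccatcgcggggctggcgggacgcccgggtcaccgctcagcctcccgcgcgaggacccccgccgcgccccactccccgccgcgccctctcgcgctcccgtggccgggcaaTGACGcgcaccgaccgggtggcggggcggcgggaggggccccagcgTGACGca
Klf4: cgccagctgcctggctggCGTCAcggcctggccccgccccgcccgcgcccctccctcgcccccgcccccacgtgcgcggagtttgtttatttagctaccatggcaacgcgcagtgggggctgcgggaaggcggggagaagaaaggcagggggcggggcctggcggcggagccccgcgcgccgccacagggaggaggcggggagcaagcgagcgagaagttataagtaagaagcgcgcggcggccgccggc
Klf15: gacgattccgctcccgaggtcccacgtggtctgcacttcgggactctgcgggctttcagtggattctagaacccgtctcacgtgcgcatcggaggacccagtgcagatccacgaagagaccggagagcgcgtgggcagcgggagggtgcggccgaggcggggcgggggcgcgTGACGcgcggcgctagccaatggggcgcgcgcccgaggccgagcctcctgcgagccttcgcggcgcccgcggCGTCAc
The window of Cebpb holds 3 cores and that of Klf4 holds 1. The windows of Klf2 and Klf9 hold 1 core each, and those of Cebpa and Klf6 hold none. The complete palindromic element, TGACGTCA, which contains the core, was in none of the 7 windows and in 1.5% of all windows. The C/EBP site TTNNGCAA, searched on both strands, was also in none of the 7, against 9.6% of all windows. The GC box GGGCGG, a site for SP and Krüppel-like factors, was in 5 of the 7 windows, against 32.7% of all, and CACCC was in 5 of the 7, against 52.0%. The 7 windows are rich in G and C, from 59.6% in Klf9 to 81.6% in Cebpb, and the windows of the genome were not matched to them in G and C. Such matches of letters are a description, not sites of binding.

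RNA levels are given as RPKM, reads scaled to gene length and library depth. Library totals recovered from these values lay between 17505798 and 27983585 reads, and the recovered reads of the members lay between 17 (Klf5) and 4160 (Klf6) in a library. The vehicle libraries differed more from each other than the treated libraries did, with a median absolute log2 difference between replicates of 0.333 over 14264 genes, against 0.108 for PTH and 0.103 for YKL-05-093. Over the 10 members these values were 0.161, 0.128 and 0.191. Markers of late osteocytes were scarce: Sost was at most 0.0519 RPKM, Mepe at most 0.136 and Fgf23 at most 0.0544, while Dmp1 lay between 0.376 and 1.15 and Phex between 0.764 and 4.93. Pdpn, a marker of early osteocytes, was between 53.1 and 171 RPKM and Gja1, the gap junction gene of bone cells, between 13.9 and 51.3. Osteoblast genes were abundant, with Col1a1 at 259 RPKM or more in every library and Alpl at 61.7 or more. Summed markers of other cell types were low: 1.13 to 2.34 RPKM for 6 adipocyte genes, 0.821 to 2.34 for 6 endothelial genes, 3.91 to 4.63 for 5 haematopoietic genes, almost all of it Cd68, 1.83 to 3.55 for 5 chondrocyte genes and 0.531 to 0.749 for 6 muscle genes, and Cidec, Lep, Cdh5 and Myod1 were listed at 0 in all 6 libraries. In bulk RNA, a change in the number of cells that hold a transcript cannot be told apart from a change in the RNA per cell.

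In vehicle-treated cells Klf6 was the most abundant of the 10, at 40.5 ± 7.33 RPKM (SD, n = 2). Klf6, a broadly expressed factor, was followed by Klf4 at 19.3 ± 0.273 and Cebpd at 18.4 ± 4.03, whose libraries overlapped. Cebpb at 14.1 ± 1.27 and Klf2 at 13.6 ± 1.30 also overlapped, and so did Cebpa at 8.44 ± 0.393 and Klf10 at 7.97 ± 0.551. Klf15 at 6.34 ± 0.388, Klf9 at 3.57 ± 0.80 and Klf5 at 1.40 ± 0.0509 followed without overlap. After PTH the order began with Cebpd at 43.6 ± 2.74 and Cebpb at 42.5 ± 0.329, which overlapped, ahead of Klf6 at 27.5 ± 1.72. After YKL-05-093 Cebpd led at 42.1 ± 4.25, ahead of Klf6 at 29.6 ± 0.556 and Cebpb at 27.5 ± 0.896, with no overlap between neighbours. Klf5 was the lowest in all 3 conditions.

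**Figure D1:**
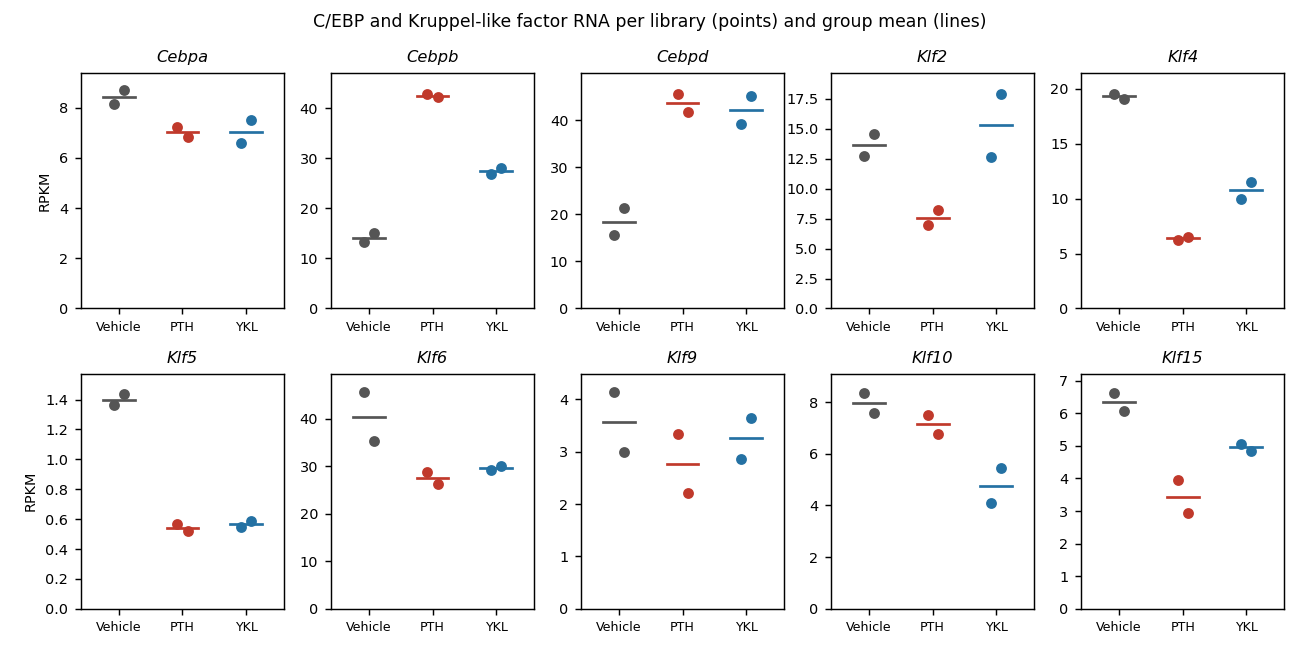
RPKM (linear axis from 0) of each of the 10 genes in vehicle, PTH and YKL-05-093 libraries, where each point is 1 library and each line the mean of 2. Cebpb and Cebpd are higher in all 4 treated libraries than in both vehicle libraries, whereas Cebpa, Klf4, Klf5, Klf6, Klf10 and Klf15 are lower in all 4.

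PTH was followed by higher Cebpb and Cebpd and lower Klf4 RNA. These 3 of the 10 members were called, the criteria being more than 2-fold and an adjusted p under 0.05 in limma on log2(RPKM + 0.1), 2 of them higher and 1 lower. Over all 14261 genes tested, 1.91% were called, 1.09% higher and 0.813% lower. All 10 members passed the filter on low values, and their median log2 fold change was -0.456, against -0.031 over all genes tested. The 3 C/EBP genes held 2 of the calls, and all 7 Krüppel-like genes had a fitted change below 0, 1 of which was called.

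Cebpb RNA was 13.2 and 15.0 RPKM in the vehicle libraries and 42.7 and 42.2 in the PTH libraries. Both PTH libraries were thus well above both vehicle libraries and close to each other. The mean rose 3.01-fold, a log2 fold change of 1.58 ± 0.16 (SE, limma adjusted p = 0.0041, n = 2 and 2). Tmem189, which shares exon bases with Cebpb, was between 8.99 and 10.5 RPKM in all 6 libraries, and its log2 difference after PTH was 0.09 ± 0.16. Cebpd RNA was 15.6 and 21.3 RPKM with vehicle and 45.5 and 41.7 with PTH. The vehicle values were further apart than those of Cebpb, but the groups did not overlap, and the log2 fold change was 1.25 ± 0.19 (SE, adjusted p = 0.0222). Spidr, on the strand opposite Cebpd, lay between 21.2 and 24.3 RPKM, with a log2 difference after PTH of 0.03 ± 0.17. Cebpa, the third C/EBP member, was 8.16 and 8.71 with vehicle and 7.24 and 6.85 with PTH. Its PTH libraries were slightly below the vehicle libraries, but the log2 difference of -0.26 ± 0.16 did not pass the test (adjusted p = 0.581).

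Klf4, known for roles in stem cells, epithelia and vascular cells, was 19.5 and 19.1 RPKM with vehicle and 6.22 and 6.55 with PTH. Replicates were close in both groups, and the log2 fold change was -1.58 ± 0.15 (SE, adjusted p = 0.00396), to 0.331 of the vehicle mean. Klf5, which promotes proliferation in several epithelia, was 1.36 and 1.44 with vehicle and 0.566 and 0.519 with PTH. Its groups were far apart relative to their spread, at a log2 difference of -1.22 ± 0.26, but the adjusted p was 0.0688. The recovered reads of Klf5 were few, 41 and 69 with vehicle and 21 and 17 with PTH, taken as the smallest whole numbers that the values allow. The pseudocount also understates the fold change of a gene this low, and with a pseudocount of 1 RPKM the log2 difference was -0.64.

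Klf2, a regulator of endothelial and lymphocyte quiescence, was 12.7 and 14.5 RPKM with vehicle and 6.95 and 8.19 with PTH. The log2 difference was -0.84 ± 0.17, with an adjusted p of 0.0624. Klf15, a factor of glucose and amino acid metabolism that responds to glucocorticoids, was 6.61 and 6.06 with vehicle and 3.94 and 2.93 with PTH, a log2 difference of -0.88 ± 0.19 (adjusted p = 0.0812). For both genes the groups did not overlap. Klf6 was 45.7 and 35.3 against 28.7 and 26.3, and Klf10, a TGF-β inducible gene, was 8.36 and 7.58 against 7.52 and 6.78. Their log2 differences were -0.55 ± 0.19 and -0.16 ± 0.16, with adjusted p-values of 0.270 and 0.763. Klf9, which responds to glucocorticoids and thyroid hormone, was 4.13 and 3.00 against 3.34 and 2.2, and its groups overlapped (adjusted p = 0.629). In all, 9 of the 10 members had groups without overlap, 2 higher and 7 lower after PTH, where 43.1% of all genes tested had none (19.1% higher and 24% lower).

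The 3 calls rest on both PTH libraries. Without PTH replicate 1 the adjusted p was 0.211 for Cebpb, 0.456 for Cebpd and 0.230 for Klf4, and without PTH replicate 2 it was 0.202, 0.417 and 0.195, while the log2 fold changes stayed between 1.03 and 1.48 for Cebpd, 1.49 and 1.68 for Cebpb, and -1.62 and -1.55 for Klf4 whichever library was left out. Without the filter on low values, none of the 3 passed, with an adjusted p of 0.058 for Cebpb, 0.145 for Cebpd and 0.0555 for Klf4. Cebpd also missed the threshold, at 0.0592, when the spread was modelled on the mean value. In 1 fit of all 6 libraries Klf5 was called, at 0.035, and Klf15 passed the adjusted p but not 2-fold, at 0.0302. With the replicate number as a block Klf5 was called, at 0.0115. Klf2 and Klf15 passed only the adjusted p there, at 0.00545 and 0.00341. Which further members passed also depended on the vehicle library left out, and the log2 difference of Klf5 was -1.19 without vehicle replicate 2.

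After YKL-05-093 no member was called, where 0.666% of 14255 genes tested were, and the adjusted p-values of Cebpb and Cebpd were both 0.0661. At an unadjusted p under 0.05 there were 5 members, Cebpb, Cebpd, Klf4, Klf5 and Klf10, where 8.67% of all genes tested were, and voom on the recovered reads also called 0, with 6 members and 8.68% of all genes at an unadjusted p under 0.05. The median log2 difference of the 10 members was -0.303, against -0.042 over all genes tested. This comparison uses the same 2 vehicle libraries as the comparison for PTH, so the values of both are given side by side here and their likeness was not tested.

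Cebpb was 26.9 and 28.1 RPKM after YKL-05-093, against 13.2 and 15.0 with vehicle. Both values lay between the vehicle and the PTH libraries, and the log2 difference from vehicle was 0.96 ± 0.16, beside 1.58 for PTH. Cebpd was 39.1 and 45.1, a range that overlaps that of the PTH libraries, with a log2 difference of 1.2 ± 0.2 from vehicle, beside 1.25 for PTH. Without vehicle replicate 2 both genes were called, with an adjusted p of 0.0267 each, and Cebpd was called in 1 fit of all 6 libraries, at 0.0149. Cebpa was 6.59 and 7.49, below both vehicle libraries by a log2 difference of -0.26 ± 0.16 (adjusted p = 0.781).

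Klf4 was 9.99 and 11.5 RPKM after YKL-05-093, between the vehicle values of 19.5 and 19.1 and the PTH values. The log2 difference from vehicle was -0.84 ± 0.16, with an adjusted p of 0.0968. Klf5 was 0.546 and 0.590, about as low as after PTH, with a log2 difference of -1.17 ± 0.26 (adjusted p = 0.153). Klf10 was 4.10 and 5.44, below both vehicle and both PTH libraries, with a log2 difference from vehicle of -0.74 ± 0.19 (adjusted p = 0.234). Klf2 was 12.7 and 17.9, and these values surrounded both vehicle libraries. Its log2 difference was 0.15 ± 0.21, and its sign depended on 1 library, at -0.10 without YKL-05-093 replicate 2. Klf15 was 5.06 and 4.85, Klf6 was 29.2 and 30.0 and Klf9 was 2.86 and 3.65, with log2 differences of -0.35, -0.44 and -0.12 and adjusted p-values of 0.577 or more. Of the 10 members, 8 had groups without overlap, 2 higher and 6 lower, where 37.8% of all genes tested had none (15.7% higher and 22.1% lower).

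**Figure D2:**
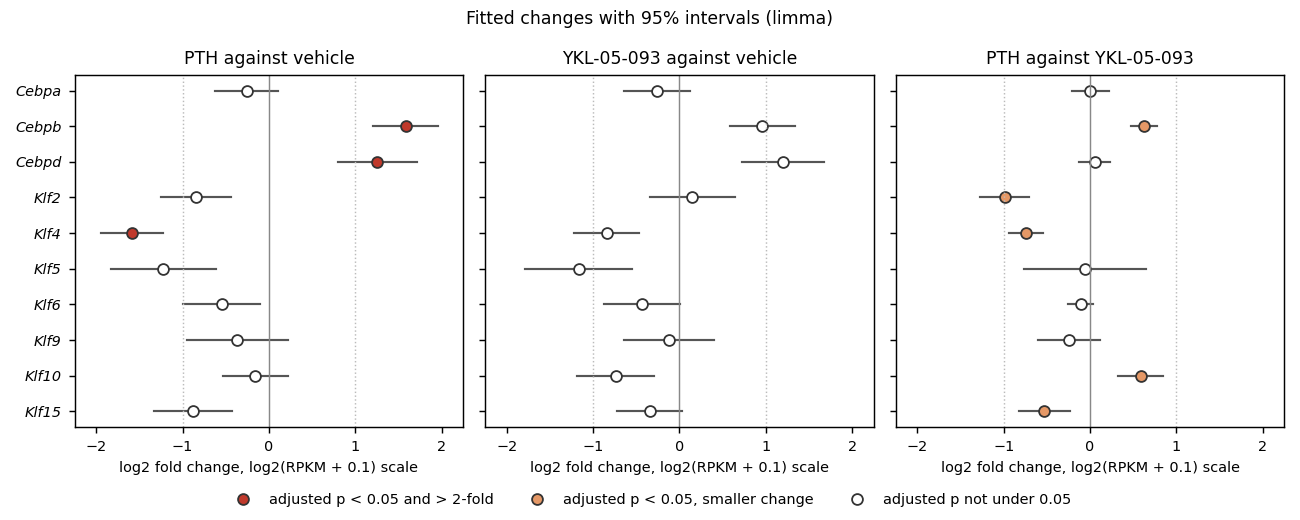
Log2 fold change of each gene on the log2(RPKM + 0.1) scale (points) with its 95% interval from limma (lines), for PTH against vehicle, YKL-05-093 against vehicle and PTH against YKL-05-093, with dotted lines at 2-fold. Cebpb, Cebpd and Klf4 are called in the first comparison and no gene is called in the second. In the third, Cebpb, Klf2, Klf4, Klf10 and Klf15 have fitted changes under 2-fold at an adjusted p under 0.05.

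The direct comparison of the PTH with the YKL-05-093 libraries used no vehicle library. No member had a fitted difference of more than 2-fold at an adjusted p under 0.05, where 1.21% of 14255 genes had. Without a limit on the fold, 5 of the 10 members passed that adjusted p, where 9.97% of all genes did, 2 of them higher (4.85% of all genes) and 3 lower after PTH (5.11%). That count was 0 without PTH replicate 1 and without PTH replicate 2, 3 without YKL-05-093 replicate 1 and 2 without YKL-05-093 replicate 2. It was 1 in 1 fit of all 6 libraries (Klf4), 1 without the filter on low values (Cebpb) and 2 when the spread followed the mean value (Cebpb and Klf4). Cebpb was higher after PTH, by a log2 difference of 0.63 ± 0.07 (SE, adjusted p = 1.64e-05, n = 2 and 2). Klf10 was also higher, by 0.59 ± 0.12 (adjusted p = 0.00449), and its RPKM of 7.52 and 6.78 after PTH stood above 4.10 and 5.44 after YKL-05-093.

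The largest of these differences was that of Klf2, at 6.95 and 8.19 RPKM after PTH and 12.7 and 17.9 after YKL-05-093. The ratio of its mean RPKM, PTH over YKL-05-093, was 0.495. On the fitted log2 scale Klf2 was lower after PTH by -0.99 ± 0.13 (adjusted p = 9.78e-05), just under the limit of 2-fold. It passed that limit when libraries were scaled to the median ratio, in voom, at -1.01, and without YKL-05-093 replicate 1, at -1.24. Klf4 was lower after PTH by -0.74 ± 0.09 (adjusted p = 4.24e-05) and Klf15 by -0.53 ± 0.14 (adjusted p = 0.0212). Cebpd did not differ detectably, with a log2 difference of 0.05 and a 95% interval from -0.12 to 0.23. For Cebpa the difference was 0.00, with an interval from -0.21 to 0.22, and for Klf6 it was -0.11, from -0.25 to 0.04. The intervals of Klf9, from -0.60 to 0.12, and of Klf5, from -0.76 to 0.65, were wider and leave room for larger differences. Of the 10 members, 6 had groups without overlap, 2 higher and 4 lower after PTH, where 50% of all genes tested had none (26.3% higher and 23.7% lower).

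The balance within each family differed between conditions as a description of the same levels. The 3 C/EBP members summed to 36.95 and 45 RPKM with vehicle, 95.48 and 90.75 with PTH, and 72.54 and 80.72 with YKL-05-093. The sums of both treated groups were above those of vehicle without overlap. Cebpa made up between 19.4% and 22.1% of that sum with vehicle, 7.5% and 7.6% with PTH and 9.1% and 9.3% with YKL-05-093. The 7 Krüppel-like members summed to 98.32 and 87.01 with vehicle, 57.24 and 53.43 with PTH and 64.42 and 73.95 with YKL-05-093. Klf4 made up between 19.8% and 22% of that sum with vehicle, between 10.9% and 12.2% with PTH and 15.5% with YKL-05-093, and Klf6 40.5% or more in every library. Sums and shares were given no test.

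Other genes listed with the families were described from full lists. Of 4 other genes listed as C/EBP, 3 were tested (Cebpg, Cebpz and Ddit3) and none was called in any comparison. Cebpz is in this list by its symbol only. Ddit3, the stress-induced inhibitor CHOP, was between 30.9 and 47.0 RPKM and was lower after PTH than after YKL-05-093 by -0.29 on the log2 scale, under 2-fold (adjusted p = 0.0108). Cebpe, a granulocyte factor, was listed at 0 throughout. Of 10 other Krüppel-like genes, 6 were tested and none was called. Klf3 was the most abundant of these, at 24.1 and 19.2 RPKM with vehicle, 14.7 and 15.7 with PTH and 18.2 and 21.8 with YKL-05-093. Its log2 difference from vehicle after PTH was -0.50 (adjusted p = 0.275). Without a limit on the fold, Klf3 and Klf11 were lower after PTH than after YKL-05-093, by -0.39 (adjusted p = 0.00891) and -0.42 (adjusted p = 0.0117).

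Of 9 SP genes, 6 were tested and 1 was called, Sp7. Sp7 was 46.0 and 45.5 RPKM with vehicle, 12.2 and 11.1 with PTH, and 22.4 and 29.6 with YKL-05-093. Its log2 fold change after PTH was -1.97 (adjusted p = 0.00189), and it was lower after PTH than after YKL-05-093 by -1.14 (adjusted p = 1.45e-06). Its difference from vehicle after YKL-05-093, -0.83, did not pass the test (adjusted p = 0.159). The general factors Sp1 and Sp3 had log2 differences from vehicle between -0.28 and -0.04.

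**Figure D3:**
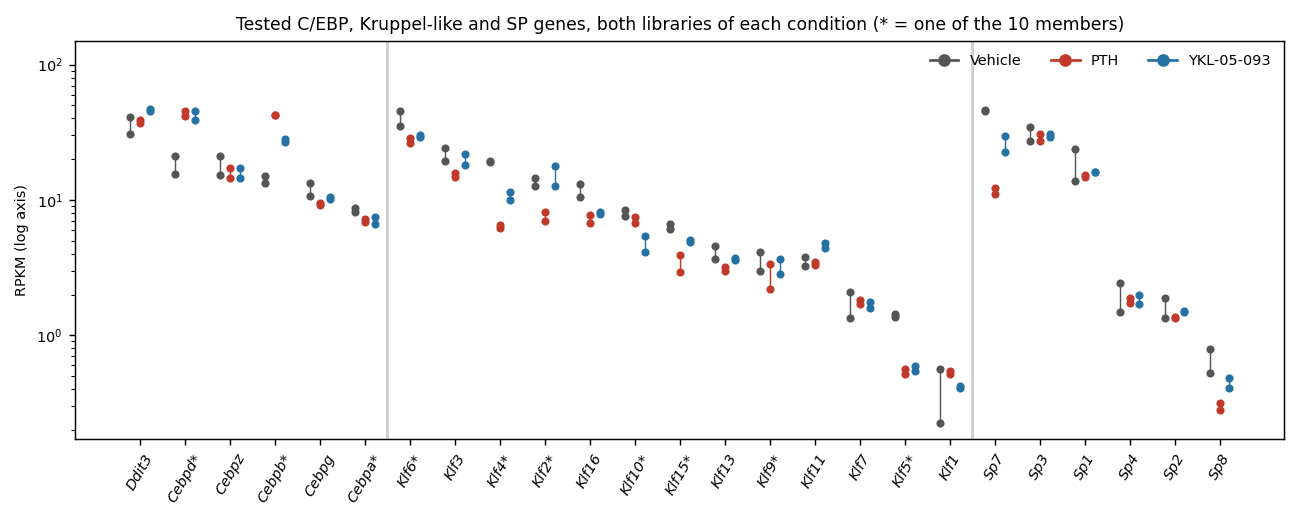
RPKM (log axis) of the tested genes listed as C/EBP (left), Krüppel-like (middle) and SP (right), ordered by mean vehicle level within each part. Both libraries of each condition are joined by a line, and the 10 members are starred. Sp7 lies at 46.0 and 45.5 with vehicle and at 12.2 and 11.1 with PTH. The unstarred genes listed as C/EBP or Krüppel-like have no call.

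Among 12 partners and regulators of C/EBP proteins, 9 were tested. Trib2, a pseudokinase that promotes degradation of C/EBPα protein, was called higher after PTH and after YKL-05-093. It was 11.3 and 10.2 RPKM with vehicle, 27.2 and 26.7 with PTH and 22.4 and 24.4 with YKL-05-093, which is higher than vehicle by 1.32 (adjusted p = 0.00908) and 1.12 (adjusted p = 0.0403) in log2 units. Nfil3, a related leucine zipper repressor, was called higher after YKL-05-093 at a log2 fold change of 1.04 (adjusted p = 0.0458), with 16.4 and 17.0 RPKM against 36.0 and 33.1, and it was 20.1 and 19.0 after PTH. Atf4, a dimer partner, lay between 78.0 and 98.3 in all libraries. Pparg, which acts with C/EBPα in fat cells, was 1.62 and 1.83 with vehicle and 0.562 and 0.770 with PTH (adjusted p = 0.0585).

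Of 12 textbook C/EBP target genes, 6 were tested and 1 was called, the chemokine gene Cxcl1, which was higher after both agents. Cxcl1 was 5.72 and 8.47 RPKM with vehicle, 46.8 and 46.7 with PTH and 27.0 and 24.1 with YKL-05-093, higher than vehicle by 2.73 (adjusted p = 0.00166) and 1.86 (adjusted p = 0.0242) in log2 units. Il6 was 0.158 and 0.330 with vehicle and between 0.980 and 1.28 in the treated libraries, and did not pass the test after PTH (adjusted p = 0.0872). Its recovered reads were few, 3 and 10 with vehicle and between 21 and 30 in the treated libraries. Of the targets known from fat cells, Adipoq, Lpl and Plin1 were at most 0.0487 RPKM, Fabp4 was between 1.08 and 2.27, and Scd1, a fatty acid desaturase gene that many tissues express, was between 23.9 and 46.7. Of 12 textbook targets of Krüppel-like factors, 7 were tested and 1 was called, S1pr1, a sphingosine phosphate receptor gene that KLF2 activates in lymphocytes. S1pr1 was 17.0 and 16.5 with vehicle, 46.6 and 43.4 with PTH and 42.5 and 43.3 with YKL-05-093, higher by 1.42 and 1.35 on the log2 scale (adjusted p = 0.00632 and 0.0204). Thbd, an endothelial gene that KLF2 activates, was 54.9 and 44.3 with vehicle and 28.2 and 27.0 with PTH (adjusted p = 0.0749). Without a limit on the fold, 3 of the 7 tested targets of Krüppel-like factors were higher after PTH than after YKL-05-093 (Ccnd1, Smad7 and Ccne1). The 2 that were lower were Thbd and Cdkn1a, where 4.85% of all genes tested were higher and 5.11% lower.

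Of 10 glucocorticoid-responsive genes, listed because Klf9, Klf15 and Cebpd respond to glucocorticoids, all were tested. Tsc22d3, which encodes GILZ, was called higher after PTH and after YKL-05-093, both at a log2 fold change of 1.5 (adjusted p = 0.00588 and 0.020). Zbtb16 was called lower after PTH than after YKL-05-093, at -1.07 (adjusted p = 0.00173). Fkbp5, Per1, Sgk1, Errfi1, Dusp1, Mt1, Mt2 and Nfkbia were not called in any comparison. The median log2 difference of the 10 genes from vehicle was 0.088 after PTH and 0.145 after YKL-05-093. That of Fkbp5 was -0.61 after PTH and -0.59 after YKL-05-093 (adjusted p = 0.230 and 0.408). For Zbtb16 it was -1.06 after PTH (adjusted p = 0.108) and 0.01 after YKL-05-093. Without a limit on the fold, Per1 and Sgk1 were lower after PTH than after YKL-05-093, by -0.73 (adjusted p = 2.65e-05) and -0.36 (adjusted p = 0.00304). Errfi1 was higher after PTH than after YKL-05-093, by 0.68 (adjusted p = 5.84e-06), and higher after PTH than with vehicle, by 0.96 (adjusted p = 0.0254). Of the osteocyte and osteoblast markers, 8 of 12 were tested and 3 were called after PTH, all higher. These were Pdpn at a log2 fold change of 1.44 (adjusted p = 0.0147), Gja1 at 1.70 (adjusted p = 0.00402) and Bglap at 1.58 (adjusted p = 0.0283). Bglap, the osteocalcin gene, was also called higher after PTH than after YKL-05-093, by 1.16. Runx2, which encodes a partner of C/EBPβ, was 19.5 and 13.0 RPKM with vehicle, 7.87 and 7.02 with PTH and 11.6 and 12.6 with YKL-05-093. Its groups did not overlap after PTH, at a log2 difference of -1.09 from vehicle (adjusted p = 0.0624), and without a limit on the fold it was lower after PTH than after YKL-05-093 by -0.695 (adjusted p = 8.81e-06). The endothelial gene Kdr was called higher after YKL-05-093, at a log2 fold change of 1.42 (adjusted p = 0.0377), and the cartilage gene Col2a1 after PTH, at 1.30 (adjusted p = 0.0147) and also by 1.02 against YKL-05-093. Neither gene was above 1.72 RPKM in any library. Whether any of these other genes bears on the C/EBP and Krüppel-like levels was not tested.

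For the 3 called members, the genes with the most similar pattern were taken by the root mean square distance of log2 values centred over the 6 libraries, among 11885 genes. Closest to Cebpb was Crem, a cAMP-responsive regulator, at a distance of 0.0815, and then Eya2 at 0.0943. Crem was 0.890 and 1.10 RPKM with vehicle, 2.92 and 2.94 with PTH and 2.13 and 1.96 with YKL-05-093. Closest to Cebpd were Tspan11 at 0.121 and Fam20a at 0.142. Closest to Klf4 were Ell2, an elongation factor gene, at 0.0847, and 2310022B05Rik at 0.117, and Ell2 was 7.91 and 7.08 with vehicle, 2.73 and 2.42 with PTH and 3.97 and 4.44 with YKL-05-093.

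**Figure D4:**
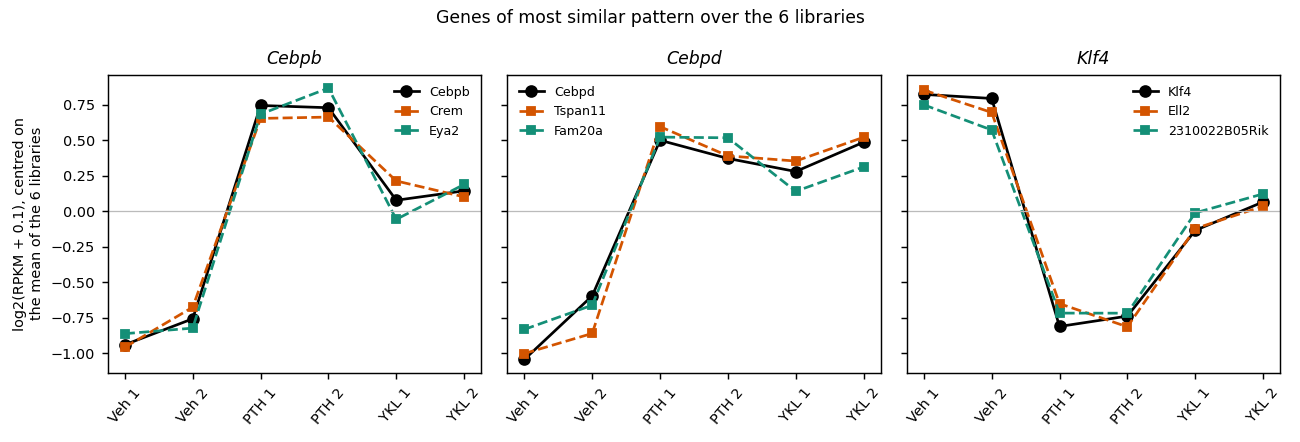
Log2(RPKM + 0.1) in the 6 libraries, centred on the mean of the libraries for each gene, of Cebpb, Cebpd and Klf4 (black circles) and of the 2 genes closest to each (coloured squares). The Cebpb and Klf4 panels mirror each other, with the YKL-05-093 libraries between vehicle and PTH, while for Cebpd the YKL-05-093 libraries are at the PTH level.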

How the data were processed

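RNA of Ocy454 cells was measured in 2 libraries for each of 3 conditions. The authors used STAR for alignment to mm10 (the GRCm38 build) and HTSeq 0.6.0 with Ensembl release 75 for counting, and deposited linear RPKM values, not scaled further between libraries. Base calls were made with CASAVA 1.7, per the submitters' processing notes. How gene length was taken and whether counting used strand are not given in the sources used here.

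Whole reads behind each RPKM were recovered from the steps between values, and all 26214 genes above 0 came out whole within 0.01 reads. Recovered gene lengths equalled the exon lengths in GENCODE M21 for 36.0% of these genes. For genes of few recovered reads, the true reads may be a whole multiple. A floor of 3 reads equals 0.0536 to 0.0857 RPKM, depending on the library, at a gene length of 2000 bases. Reads served to model the spread and in voom, and were not the values tested.

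Tested were the 14264 genes that reached 0.5 RPKM in 2 or more of the 6 libraries, apart from those without reads in the libraries compared. limma 3.58.1 in R 4.3.3 was run on log2(RPKM + 0.1), separately for the 4 libraries of each comparison, with the prior variance following the mean log2 reads and Benjamini-Hochberg adjustment over all genes. Calls needed an adjusted p under 0.05 and more than 2-fold. Both steps were tested on simulated data. An exact permutation test of 2 against 2 libraries cannot go below p = 0.333 (two-sided) and was not used.

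All 10 members are named, and from each list the called genes, with others chosen as examples after their values were seen. The members, the lists and the test settings were chosen with earlier results of these data known. Leaving out genes without reads was decided after the files were read. Replicate numbers were not taken to pair libraries, since deviations of libraries with the same number did not correlate (r between -0.054 and -0.034 over 14264 genes). Alternatives were other pseudocounts, filters, models of the spread, scaling, voom, call rules, a replicate block and leaving out each library. Positions and overlaps came from GENCODE M21 on GRCm38.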

Additional observations from a re-analysis of the deposited data

How the results depend on the processing

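Of 450 refits of single members under 15 alternatives in each of the 3 comparisons, 421 kept their direction and their side of the threshold, 10 lost a call, 10 gained one and 9 reversed. For PTH against vehicle the 3 called members became 0 without a filter on low values, where limma called 0 of 25085 genes with 2343 at an unadjusted p under 0.05, and leaving out 1 library gave 0 to 4. The value of 0 came without either PTH replicate, when the lone PTH library was assumed to vary like the vehicle libraries, and that of 4 without vehicle replicate 2. Refits that leave out a library have fewer libraries. For the other losses and gains the cause was not tested. For YKL-05-093 against vehicle, 1 fit of all 6 libraries called 1 member (Cebpd), and leaving out 1 library gave 0 to 2. For PTH against YKL-05-093, scaling to the median ratio and voom called 1 each (Klf2), a limit of 1.5-fold called 4 and no limit on the fold 5, and leaving out 1 library gave 0 to 1.

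The replicate block called 4 members for PTH against vehicle (adding Klf5), 1 for YKL-05-093 against vehicle (Cebpd) and 0 for PTH against YKL-05-093. Over all genes, the block called 440 against 272, 215 against 95 and 196 against 172 genes. The libraries share only a number, so this is no paired analysis.

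Keeping genes without reads in the fit, chosen after seeing the data, called 263, 34 and 162 genes in the 3 comparisons and the same numbers of members. Other counts over all genes moved by more than 1.5-fold. When the spread followed the mean value they were 160 for PTH and 6 for YKL-05-093, and with a pseudocount of 1 RPKM they were 55 for YKL-05-093 and 98 for PTH against YKL-05-093. With a filter at 0.1 RPKM YKL-05-093 gave 57, without a filter 0 of 24944 with 1734 at an unadjusted p under 0.05, and 1 fit of all 6 libraries gave 173 for YKL-05-093 and 102 for PTH against YKL-05-093. When 1 library was left out, calls ranged from 14 to 669 genes for PTH, from 11 to 321 for YKL-05-093 and from 0 to 155 for PTH against YKL-05-093, with 669 and 321 both without vehicle replicate 2. The 0 calls came from limma without either PTH replicate, with 2130 and 2022 genes at an unadjusted p under 0.05.

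The reversed values were all of members that were not called. Under scaling to the median ratio Cebpa for PTH against YKL-05-093 was -0.0076. When 1 library was left out, log2 differences ranged from -0.35 to 0.10 for Klf9 and from -0.10 to 0.40 for Klf2 (YKL-05-093 against vehicle), and from -0.087 to 0.095 for Cebpa, from -0.050 to 0.16 for Cebpd and from -0.53 to 0.045 for Klf9 (PTH against YKL-05-093). Depth limits Klf5 most, with 17 to 69 recovered reads in a library, taken as the smallest whole numbers that the values allow.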
